A study of Mus musculus with 24 samples.

Results

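The blood of young male C57BL/6J mice was compared between 6 animals given a total body dose of 4 Gy of x-rays and 6 sham-treated, unirradiated animals, all 2 months old and sampled 24 h after exposure. These 12 mice were 1 age group of an experiment with 24 mice, in which the other 12 were 21 months old. The mice were taken by their labels, and all genes were examined without regard to size of change. Every mouse was restrained without anaesthesia for exposure or sham exposure, blood was drawn by cardiac puncture at euthanasia into an RNA-stabilising solution, and globin transcripts were depleted from the RNA. The RNA of each mouse was hybridised to a single-dye (Cy3) Agilent mouse array of its own. Of 29742 named genes on the array, 17523 passed the filters on background and variation and were tested with limma (two-sided, 6 against 6 mice). Levels are log2 signals relative to the median spot of the same array, so a level of 0 is that of the median spot and a difference of 1 is a 2-fold difference. Genes with p under 0.005 and a Benjamini-Hochberg adjusted p under 0.05 over all genes tested are called differentially expressed genes (DEGs). Changes are irradiated minus unirradiated on the log2 scale, given ± SE.

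Ionizing radiation breaks DNA, and the kinase ATM then stabilises the transcription factor p53, which induces genes that arrest the cell cycle and genes that kill the cell. Circulating lymphocytes are known to be among the most radiosensitive cells of the body, with B cells more sensitive than T cells and natural killer (NK) cells, whereas granulocytes, platelets and red cells are mature cells that no longer divide. Whole blood mixes all of them. A fall of a transcript in whole blood therefore cannot be told apart from a loss of the cells that carry it, and a rise cannot be told apart from a larger share of such cells.

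The 12 arrays came from 3 slides scanned on 1 day. The first slide held unirradiated mice 1 to 4 and the third held irradiated mice 3 to 6. The second held unirradiated mice 5 and 6 with irradiated mice 1 and 2. The counts of called genes are therefore also given with slide as a block. In that fit the change comes from the second slide alone, the only one with both groups. The other arrays add only to the estimate of spread, so these counts rest on fewer mice than the main counts. Median signal was 14.39 to 44.81 per array, and 43.93% to 64.43% of spots were well above background, with overlapping ranges in the groups. Hepatocyte markers set some arrays apart. Of 22 listed markers 13 were tested, and their mean level relative to the unirradiated mean was 6.10, 7.16 and 6.27 in irradiated mice 2, 4 and 5, against -1.24 to -0.65 in irradiated mice 1, 3 and 6 and -2.27 to 3.44 in unirradiated mice, highest in unirradiated mouse 5. The log2 of the summed hepatocyte signal was 7.25 to 12.12 in unirradiated and 8.38 to 15.68 in irradiated mice, and 1 of the 13, *Tat*, passed the test. Counts are therefore also given without these 4 arrays, a comparison chosen after the data were seen, and any part of the hepatocyte signal in a result was not tested beyond that. The distance between a pair of arrays was the median absolute deviation of their log2 differences, scaled as an SD. It was lowest between irradiated mice 2 and 5 (0.151 over 11493 genes). Irradiated mice 1 and 6 (0.207) and unirradiated mice 3 and 4 (0.233) followed. Repeat spots of 1 array would give 0.090 to 0.133. They hold no differences in labelling or hybridisation between arrays, so they cannot decide whether a pair shares material. The pairs were kept as separate mice by their labels, and counting each pair as 1 sample left 4590 DEGs. Blood identity was clear from haemoglobin, platelet, neutrophil and lymphocyte markers, whose probes were well above background in all unirradiated mice for *Hba-a1*, *Pf4*, *S100a8*, *Cd3e*, *Cd79a* and *Ms4a1*.

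The response was broad. DEGs numbered 6251, or 35.7% of the genes tested, of which 2520 (14.4%) were upregulated and 3731 (21.3%) downregulated. The falls were more numerous and the rises larger, with a median change of 1.36 among upregulated and -0.94 among downregulated genes, and -0.20 over all genes tested. Only 59 of the upregulated genes changed by less than 1.5-fold against 337 of the downregulated genes, and 38 rises against 9 falls reached 16-fold. Every irradiated mouse was above every unirradiated mouse for 1672 genes (9.54%) and below for 2694 (15.4%). These shares over all genes are the measure for each list count below. Among the 10% of genes with the brightest probes 59.2% were DEGs, with 650 falls and 387 rises, compared with 13.1% in the dimmest 10%. Irradiated mice also varied more among themselves. The median SD was 0.466 in irradiated and 0.305 in unirradiated mice, and 70.5% of the genes had the larger SD in the irradiated group. Part of this spread lay between mice with high and low hepatocyte markers. Distances between arrays, measured as above, were 0.207 to 0.355 between irradiated mice 1, 3 and 6, beside 0.233 to 0.455 between unirradiated mice. Pairs of any of these 3 with irradiated mouse 2, 4 or 5 differed by 0.513 to 1.033. Mouse 4 differed from mice 2 and 5 by 0.557 and 0.596.

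**Figure D1:**
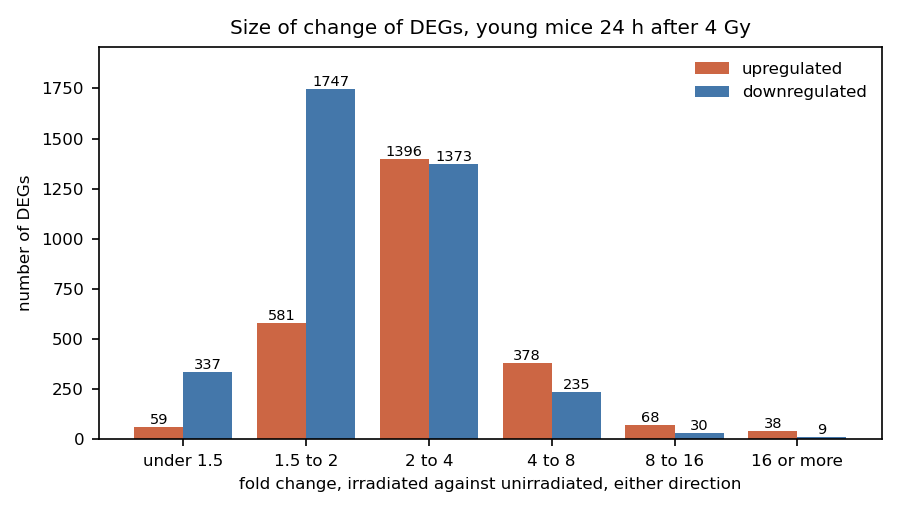
Number of upregulated and downregulated DEGs by size of change in young mice 24 h after 4 Gy (x axis, fold change, irradiated against unirradiated in either direction; y axis, number of DEGs). Between 1.5- and 2-fold the falls (1747) outnumbered the rises (581), at 2- to 4-fold the counts were close (1373 and 1396), and from 4-fold on rises were more frequent (378 against 235 at 4- to 8-fold).

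Which share of DEGs rose depended on how background and spread were handled. It was 40.3% here, 51.5% when the spread was estimated from all 24 arrays, and 93.6% of 872 DEGs after normexp background correction, which leaves 56 falls. The falls described below were called less often there: 10 of 19 in the B cell receptor list, 3 of 11 in MHC class II, 3 of 9 in naive T cell genes and 1 of 14 in the T cell receptor list, and 0 in the red cell, replication, mitosis, repair, ribosomal protein, splicing and zinc finger lists. The medians of the B cell, MHC class II, T cell, red cell membrane, replication, mitosis, repair, cytosolic ribosomal and zinc finger lists stayed below 0 in that setting, those of splicing factors (0.08), globins and heme synthesis (0.07), translation initiation factors (0.19) and mitochondrial ribosomal proteins (0.30) lay above 0, and the median of all genes was 0.21. With slide as a fixed block, 816 genes rose (4.66%) and 993 fell (5.67%). Among the 4 arrays of the shared slide alone 77 genes passed (0.439% of those tested), and there all but 1 of the DEGs changed in the same direction as over the 12 mice. Those 4 arrays are part of the 12 on which the DEGs were chosen, so this agreement in direction is no separate check of slide.

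The p53 targets that arrest the cell cycle or feed back on p53 rose more often than they fell. Of 26 listed genes 22 were tested, of which 11 rose and 5 fell, with a median change of 0.88 beside -0.20 over all genes. *Cdkn1a*, which encodes the CDK inhibitor p21, ranged from -0.53 to 1.16 (median -0.08) in unirradiated mice and from 4.23 to 5.71 (median 5.38) in irradiated mice, an increase of 5.06 ± 0.33, adjusted p = 5.62e-07, or 33.4-fold. The lowest irradiated mouse was far above the highest unirradiated mouse. *Phlda3*, a p53-induced inhibitor of AKT, rose by 3.24 ± 0.15, adjusted p = 1.11e-07, and the groups did not overlap. *Psrc1* (2.53) and *Plk2* (2.23), which act at the mitotic spindle and in the stress response, also rose, from probes that were near background in several unirradiated mice. *Mdm2*, the ubiquitin ligase that limits p53, rose less, by 0.89 ± 0.14, adjusted p = 0.000286. *Ccng1*, encoding cyclin G1, and *Zmat3* and *Ei24* were named after their values were seen and rose by 1.87, 1.48 and 1.72.

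The falls on that list were *Ddb2*, *Rrm2b*, *Sesn1*, *Btg2* and, named after its values were seen, *Fdxr*. *Ddb2*, which recognises ultraviolet lesions in nucleotide excision repair, ranged from 2.39 to 3.06 (median 2.94) in unirradiated mice and from 0.78 to 1.66 (median 1.06) in irradiated mice. All irradiated mice were below all unirradiated mice, a change of -1.72 ± 0.18, adjusted p = 1.68e-05. *Rrm2b*, the p53-inducible ribonucleotide reductase subunit, changed by -1.35 ± 0.22, and *Sesn1* (-0.90) and *Btg2* (-0.74) by smaller amounts. *Gadd45a*, at -0.96 ± 0.34, did not pass the test.

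Of the 10 p53 targets in cell death, 7 rose and 0 fell, with a median change of 0.96. *Bax*, a pore-forming executioner at the mitochondrial membrane, ranged from 4.88 to 5.46 (median 5.03) in unirradiated mice and from 6.23 to 6.74 (median 6.50) in irradiated mice, with no overlap and a change of 1.40 ± 0.14, adjusted p = 1.55e-05. *Bbc3*, which encodes PUMA, rose by 1.41, *Aen*, an apoptosis-enhancing nuclease, by 1.27, *Bak1* by 0.99, *Bid* by 0.92, the death receptor *Fas* by 0.88 and *Pmaip1*, which encodes NOXA, by 0.88. *Perp* had a larger mean change (2.22 ± 1.01) that did not pass the test, and *Apaf1* (0.30) and *Pidd1* (0.03) did not either. Among 6 tested survival genes of the BCL2 family, *Bcl2l1* fell (-1.26), *Bcl2l2* rose (0.80) and 4 were not called. Of 8 caspases 3 rose, among them *Casp4* (1.20) and *Casp1* (0.57), and *Casp2* fell (-0.94). With slide as a block, 8 arrest genes and 3 death genes rose, and the within-slide medians were 0.83 and 1.01. Without the 4 hepatocyte-high arrays 12 and 7 rose.

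Promoter sequence is shown for 3 of these genes, because p53 acts by binding pairs of a short half-site near its targets. The p53 half-site (searched on both strands in the 250 bases before the start, by its degenerate consensus) occurs in 1941 of 27025 RefSeq mouse promoters (7.18%). Of the 16 arrest and feedback genes with an entry 9 rose, and it occurs in 6, of which 5 rose. Of the 8 cell death genes with an entry 6 rose, and it occurs in 1. The 3 genes shown were picked among those with a match, and *Phlda3*, *Psrc1*, *Plk2*, *Bbc3* and *Aen* rose without one. Capitals mark half-site matches in the stretches below, read 5′ to 3′ in the direction of the gene (RefSeq, build GRCm38.p6): *Cdkn1a* at chr17:29090866-29090955, plus strand, *Mdm2* at chr10:117710895-117710984, minus strand and *Bax* at chr7:45467050-45467139, minus strand.
Cdkn1a: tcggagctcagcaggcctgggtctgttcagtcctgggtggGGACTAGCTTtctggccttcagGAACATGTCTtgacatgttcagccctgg
Mdm2: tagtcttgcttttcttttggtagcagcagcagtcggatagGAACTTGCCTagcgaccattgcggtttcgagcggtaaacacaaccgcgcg
Bax: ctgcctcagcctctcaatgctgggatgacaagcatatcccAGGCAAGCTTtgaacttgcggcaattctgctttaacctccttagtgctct
Of these, *Cdkn1a* held 2 matches within the stretch and the other two held 1 each. Entries were found for 16 of 22 tested arrest genes and 8 of 10 death genes, so the shares describe the genes with an entry only.

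B cell transcripts fell in nearly every listed gene. All 21 listed genes of the B cell receptor and its co-receptors were tested and 19 fell, with a median change of -2.54, and in all 19 every irradiated mouse was below every unirradiated mouse. Over all genes tested, 21.3% fell and 15.4% had every irradiated mouse lower. *Ccr6*, a chemokine receptor that guides B cells to mucosa, ranged from 5.74 to 6.21 (median 6.08) in unirradiated mice and from 0.80 to 1.41 (median 0.82) in irradiated mice, a change of -5.07 ± 0.15, adjusted p = 8.93e-10. Both groups were tight, and this was the lowest p of all genes. *Vpreb3* (-4.44), a B cell chaperone of the receptor, and *Fcer2a* (-4.32), the low-affinity IgE receptor CD23, followed. *Tnfrsf13c*, the survival receptor for BAFF, changed by -3.44, the inhibitory receptor *Btla* by -3.28, the IgM receptor *Fcmr* by -3.14, and the receptor signalling chains *Cd79a* and *Cd79b* by -2.83 and -2.68. *Ms4a1*, which encodes CD20, ranged from 7.74 to 8.45 (median 8.13) in unirradiated mice and from 5.40 to 6.99 (median 5.98) in irradiated mice, without overlap, and changed by -2.13 ± 0.25, adjusted p = 3.35e-05. The 2 genes not called, named for that reason after their values were seen, were *Btk* (-0.01) and *Ralgps2* (-0.30). *Btk* is a kinase used by myeloid cells too, and any part of other cells in these 2 values was not tested. The mean level of the list relative to the unirradiated mean was -3.00 to -2.26 in irradiated mice and -0.21 to 0.16 in unirradiated mice, a narrow range beside the distance between them.

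B lineage transcription factors fell in 9 of 11 cases. *Ebf1*, which commits progenitors to the B lineage, changed by -3.23 ± 0.24, adjusted p = 1.4e-06, and *Bach2* (-2.92), *Bcl11a* (-2.89), *Spib* (-2.40) and *Pax5* (-2.04) likewise. *Bcl6* (-0.56) and *Ikzf3* (-0.32) did not pass the test. Plasma cell genes showed 1 rise and 2 falls among 7, with *Irf4* at -1.29, *Mzb1* at -0.99, *Xbp1* at 0.67, and *Jchain* (0.29) and *Prdm1* (0.34) not called. With 7 genes, these counts were close to the shares of all genes that rose (14.4%) and fell (21.3%). All 11 genes of the MHC class II pathway fell. The class II chains and chaperones of B cells led, with *H2-Eb2* at -4.25, *H2-Ob* at -3.49 and *H2-Oa* at -2.97, compared with the classical chains *H2-Aa* (-2.21), *H2-Ab1* (-1.98) and *H2-Eb1* (-1.76), the invariant chain *Cd74* (-1.80) and the class II transactivator *Ciita* (-0.88). *Cd74* ranged from 9.81 to 10.12 (median 10.07) in unirradiated mice and from 7.47 to 9.27 (median 8.14) in irradiated mice, and the groups did not overlap. MHC class I and immunoproteasome genes did not share this pattern in the counts, with 1 rise (*B2m*, 1.13), 0 falls and 9 not called of 10.

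BAFF and APRIL, the cytokines on which mature B cells depend, gave falls on the receptor side and a rise on the ligand side. Of 8 tested members 6 fell, among them both receptors *Tnfrsf13c* and *Tnfrsf13b* (-2.23), the kinase *Map3k14* (-1.46) and the NF-kB subunits *Nfkb2* (-1.29) and *Relb* (-1.05). The ligand *Tnfsf13b*, which encodes BAFF itself, ranged from -0.97 to 0.26 (median -0.14) in unirradiated mice and from 0.73 to 1.47 (median 1.27) in irradiated mice, and every irradiated mouse was higher (1.44 ± 0.21, adjusted p = 0.000171). With slide as a block 19 receptor genes, 8 transcription factors and 10 class II genes fell, and without the 4 hepatocyte-high arrays 19, 9 and 10.

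T cell transcripts fell less and less evenly. Of 24 listed T cell receptor and signalling genes 23 were tested, 14 fell and 1 rose, with a median change of -1.12. *Cd8a*, the co-receptor of cytotoxic T cells, ranged from 3.49 to 4.36 (median 3.90) in unirradiated mice and from -0.39 to 1.87 (median 1.21) in irradiated mice, a change of -2.84 ± 0.32, adjusted p = 3e-05. Its groups did not overlap. *Cd8b1* changed by -2.58. *Cd4*, the co-receptor of helper T cells, ranged from 6.90 to 7.64 (median 7.30) in unirradiated mice and from 6.36 to 7.76 (median 7.32) in irradiated mice, with full overlap and a change of -0.16 ± 0.26 that did not pass the test. Between them lay the CD3 chains *Cd3d* (-1.52) and *Cd3e* (-1.13), the pan-T markers *Thy1* (-1.34) and *Cd2* (-0.96), the developmental regulator *Themis* (-1.91) and the kinase *Lck* (-1.04). *Lcp2*, an adaptor shared with platelets and myeloid cells, was the single rise (1.25), opposite in sign to its deposited value (-0.305).

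Naive T cell and homing genes fell further, 9 of 12, with a median of -1.81. *Dapl1* ranged from 5.04 to 5.95 (median 5.73) in unirradiated mice and from 0.27 to 2.07 (median 0.71) in irradiated mice, changing by -4.70 ± 0.28, adjusted p = 4.85e-07, and separated the groups completely. *Ccr7*, the receptor for entry into lymph nodes, changed by -3.14, the transcription factors *Tcf7*, *Lef1* and *Bcl11b* by -2.58, -2.20 and -2.04, and the IL-7 receptor *Il7r*, the survival receptor of naive T cells, by -1.88. *S1pr1*, needed for exit from lymph nodes, changed by -1.43. *Klf2* (-0.35) and *Gata3* (-0.22) were not called. Among regulatory T cell and checkpoint genes *Foxp3* (-1.36) was the only call of 9.

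The T cell list also differed within the irradiated group. Its mean level was -0.34 and -0.27 in irradiated mice 1 and 6, -1.08 in mouse 3, and -1.27, -1.95 and -1.19 in the mice with high hepatocyte markers. Without the 4 arrays 8 genes of the T cell receptor list fell and 2 rose, and with slide as a block 2 fell, whereas 9 and 7 naive T cell genes fell. Hepatocyte signal moved with these levels, and its part in the falls was not tested further.

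NK receptors and cytotoxic genes moved the other way. Of 18 tested NK receptor genes 12 rose and 0 fell, with a median of 1.39, although the groups were apart for only 1 of them. *Itga2*, the collagen receptor CD49b, is carried by platelets as well as NK cells, and ranged from 0.77 to 1.78 (median 1.32) in unirradiated mice and from 2.40 to 4.05 (median 3.43) in irradiated mice, without overlap (2.12 ± 0.28, adjusted p = 7.61e-05). The activating receptor *Ncr1*, which defines NK cells, ranged from 0.51 to 2.45 (median 1.42) in unirradiated mice and from 2.11 to 4.06 (median 3.30) in irradiated mice, and the lowest irradiated mouse lay within the unirradiated range (1.75 ± 0.39, adjusted p = 0.00255). *Klri2* (1.85), *Klre1* (1.76), *Klra8* (1.62) and *Klra4* (1.56) of the Ly49 and related lectin families rose similarly, while *Il2rb* (1.15), *Klrd1* (0.46), *Cd244* (0.23) and *Txk* (0.09) did not pass the test. Unirradiated mice ranged from -0.62 to 0.65 in mean level and irradiated mice from 0.18 to 1.97. The irradiated mice with low hepatocyte markers were the high ones (1.85, 1.53 and 1.97). Without the 4 arrays 15 rose with a median of 1.95, whereas with slide as a block 1 rose, with a within-slide median of 1.89.

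Of 16 cytotoxic effector genes 5 rose and 1 fell. *Gzmb*, a pro-apoptotic serine protease, ranged from 3.53 to 4.58 (median 3.71) in unirradiated mice and from 4.25 to 6.70 (median 5.92) in irradiated mice, overlapping slightly, and rose by 1.94 ± 0.36, adjusted p = 0.0009. *Gzma* (1.78), *Fasl* (1.75) and the granzyme inhibitor *Serpinb9* (1.65) rose too, and *Gzmm* fell (-1.0). *Prf1* (0.55), *Nkg7* (0.69) and *Ccl5* (0.09) were not called. Leaving out the 4 arrays raised the count of rises to 14 with 0 falls, and with slide as a block 1 rose.

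**Figure D2:**
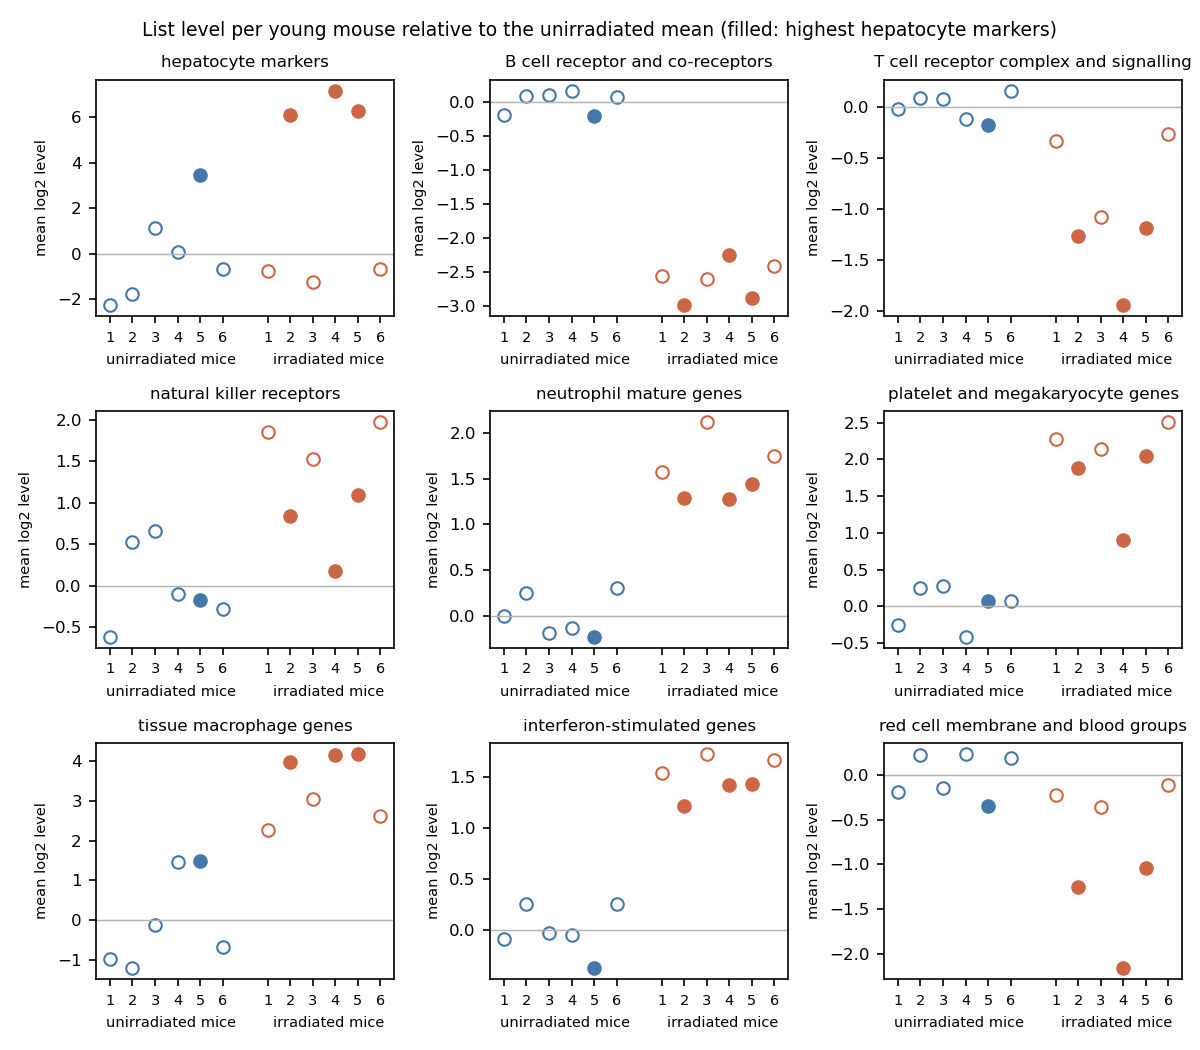
Mean log2 level of 9 gene lists in each of the 12 young mice relative to the mean of the unirradiated mice (y axis, log2; x axis, mice 1 to 6 of each group, 1 point per mouse, filled where hepatocyte markers were highest). B cell genes were at -2.26 or lower in every irradiated mouse and platelet genes at 0.91 or higher, while hepatocyte, T cell, NK and red cell lists separated irradiated mice 2, 4 and 5 from mice 1, 3 and 6 or from mice 1 and 6.

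Genes of mature neutrophils rose in 15 of 22 cases with 0 falls and a median of 1.60. *Lrg1*, a granule glycoprotein, ranged from 2.60 to 5.28 (median 4.14) in unirradiated mice and from 6.66 to 9.54 (median 8.26) in irradiated mice, without overlap (3.89 ± 0.53, adjusted p = 0.000108). *Padi4*, which citrullinates histones in extracellular traps, rose by 3.39, the protease inhibitor *Slpi* by 3.01, the histidine decarboxylase *Hdc* by 2.09, the decoy receptor *Il1r2* by 1.98 and the calprotectin subunits *S100a8* and *S100a9* by 1.67 and 1.64. *S100a8* ranged from 7.54 to 9.02 (median 8.32) in unirradiated mice and from 9.26 to 10.97 (median 9.91) in irradiated mice, a bright signal that separated the groups. *Csf3r*, the receptor for G-CSF, did not follow (-0.17), nor did *Mxd1* (-0.21) and *Retnlg* (0.52). The granule genes that neutrophils transcribe as precursors gave few calls. Of 11 secondary granule genes *Lcn2* (1.77), *Ifitm6* (0.84) and *Ly6g* (0.71) rose and *Chil3* fell (-1.98), while *Camp* (-0.17) and *Mmp8* (0.97) were not called. Of 4 primary granule genes *Prtn3* rose (2.21, well above background in 2 unirradiated mice). Leaving out the 4 arrays gave 17 rises among mature neutrophil genes, and with slide as a block 4.

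Monocyte genes were split. Of 20 tested, 7 rose, 2 fell and 11 were not called, with a median of 0.30. *Cd14*, the lipopolysaccharide co-receptor, rose by 3.15 ± 0.56, adjusted p = 0.000631, *Fn1*, encoding fibronectin, by 2.84, *F13a1* by 1.64 and the lysozyme gene *Lyz2* by 1.46. *Cx3cr1*, the fractalkine receptor of patrolling monocytes, fell (-1.14), as did *Irf8* (-1.64), a factor also expressed in B cells. The recruitment receptor *Ccr2* (0.20), *Ly6c1* (0.08) and the growth factor receptor *Csf1r* (0.52) did not pass the test. *Fn1* is expressed in other tissues too, and without the 4 arrays 3 genes rose and 1 fell, and with slide as a block 1 and 0.

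Chemokine receptors changed in both directions, with 6 falls and 4 rises of 15 tested. The falls were *Ccr6*, *Ccr7*, the follicular receptor *Cxcr5* (-2.17), the gut-homing receptor *Ccr9* (-1.98), *Cx3cr1* and, named after its values were seen, *Cxcr4* (-1.08). The rises included *Cxcr2* (1.92) and *Cxcr1* (1.71), both for neutrophil chemokines, and *Ccr1*, whose probe was not well above background in any unirradiated mouse and which was at least 2.9-fold higher in irradiated mice. Of 12 chemokine ligands 6 rose and 0 fell, led by the eotaxin *Ccl24* (4.57) and the B cell attractant *Cxcl13* (4.32), both dim in unirradiated mice, followed by *Ccl9* (1.90), *Ccl2* (1.87) and *Ccl6* (1.75). Of the Toll-like receptor list, 8 of 18 rose, among them *Tlr4* (1.29) with its partners *Cd14* and *Ly96* (1.31), and *Tlr1* fell (-2.44). Of 13 Fc receptors and their kinases 6 rose, among them the activating receptors *Fcgr4* at 1.73, *Fcgr3* at 1.46 and their signalling chain *Fcer1g* at 1.40. The inhibitory receptor *Fcgr2b* (-0.20) did not pass the test. Spike-in scaling left 1 rise in the Toll-like receptor list and 2 among Fc receptors. The rises with slide as a block numbered 2 among chemokine receptors, with 4 falls, and 1 in each of the chemokine ligand, Toll-like receptor and Fc receptor lists. Without the 4 arrays they were 4, with 5 falls, 8, 8 and 6.

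Transcripts of tissue-resident macrophages gave some of the largest rises. Of 20 listed genes 15 were tested and 12 rose, with a median change of 3.59. *Marco*, a scavenger receptor of splenic marginal zone macrophages, ranged from 0.41 to 5.38 (median 2.04) in unirradiated mice and from 7.11 to 9.24 (median 7.94) in irradiated mice. The unirradiated mice spread widely, with mouse 5 highest, but all lay below the irradiated mice (5.65 ± 0.83, adjusted p = 0.000167). *Cd5l*, a secreted macrophage protein, rose by 5.43, the complement receptor *Vsig4* of Kupffer cells by 4.88, the phosphatidylserine receptor *Timd4* by 3.71, the F4/80 gene *Adgre1* by 2.75 and the iron exporter *Slc40a1* by 1.99. *Vsig4* and *Timd4* were each well above background in 3 unirradiated mice. *Siglec1*, which encodes the sialoadhesin CD169 and was named after its values were seen, was not well above background in any unirradiated mouse and was at least 12-fold higher in the irradiated group. That bound is close to the measured change (3.59 ± 0.38) and leaves out the spread between mice. *Apoe* (1.69), and, named after their values were seen, the Kupffer cell lectin *Clec4f* (2.08) and the red pulp factor *Spic* (-0.38) were not called. Mean levels of the list were -1.21 to 1.5 in unirradiated and 2.26 to 4.18 in irradiated mice, and highest in the 3 irradiated mice with high hepatocyte markers (3.97, 4.15 and 4.18). Leaving out the 4 arrays gave 12 rises, with a median of 2.96. With slide as a block 3 rose, and within the shared slide the median was 2.91.

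Complement genes rose in 11 of 15 cases. Their members made by macrophages included the C1q chains *C1qa* (4.69), *C1qb* (2.25) and *C1qc* (4.91), which recognise immune complexes and dying cells, and properdin *Cfp* (3.12). Factor B, *Cfb*, rose by 4.32 ± 0.82, adjusted p = 0.000985 and *C4b* by 4.59 ± 1.01, adjusted p = 0.00257. *C3* had a mean change of 2.49 ± 1.02 that did not pass the test. *Cd55*, which protects cells from complement, ranged from 5.41 to 6.44 (median 6.22) in unirradiated mice and from 2.69 to 3.35 (median 2.94) in irradiated mice, with a fall in every irradiated mouse (-3.15 ± 0.19, adjusted p = 4.85e-07). The counts were again 11 and 1 without the 4 arrays, and with slide as a block 2 and 1. Acute phase proteins, which the liver secretes during inflammation, rose in 5 of 7 tested of 11 listed. *Saa3*, a serum amyloid made by macrophages and other cells as well as liver, ranged from 0.33 to 7.01 (median 3.04) in unirradiated mice and from 9.24 to 11.53 (median 10.76) in irradiated mice, or 126-fold (6.98 ± 1.03, adjusted p = 0.000175). Unirradiated mice covered a wide range, and all lay below the irradiated mice. *Saa1* rose by 4.98 and haptoglobin *Hp* by 2.85. The median of this list was 3.75 over the 12 mice and 1.45 without the 4 hepatocyte-high arrays, with 5 rises in both, and 0 with slide as a block.

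The receptors, bridging proteins and engulfment factors by which phagocytes clear dying cells rose in 15 of 26 cases, with 1 fall. *Gas6*, the bridging ligand of the TAM receptors, rose by 4.13 ± 0.55, adjusted p = 8.57e-05, the scavenger receptor *Stab1* by 2.87, the bridge *Thbs1* by 2.36, and *Itgb5* and *Itgb3*, integrin chains that bind bridging proteins, by 1.99 and 1.86. The scavenger receptor *Cd36* fell (-1.31). *Cd47*, the signal that inhibits engulfment, was not called (0.73). Here 15 rose without the 4 arrays and 9 with slide as a block. Lysosome genes, the machinery that degrades what is engulfed, rose in 18 of 35 cases and fell in 2. *Ctsl* and *Ctsd*, both cathepsin proteases, rose by 2.44 and 2.04, the membrane proteins *Lamp2* and *Lamp1* by 2.09 and 1.55, and *Gusb* by 1.45. *Tfeb* (-0.92), the transcription factor that drives lysosome genes, was among the falls, and *Ctsb* (-0.07), *Ctsh* (-0.07) and *Ctss* (0.36) did not pass the test. The lysosome rises numbered 13 without the 4 arrays, 7 with slide as a block, 6 with spike-in scaling and 7 after normexp.

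Interferon-stimulated genes rose in 29 of 35 tested of 36 listed, with 1 fall and a median change of 1.59. For 28 of the rises every irradiated mouse was above every unirradiated mouse, beside 9.54% of all genes. *Oas1a*, an antiviral oligoadenylate synthetase, ranged from 4.78 to 5.45 (median 5.07) in unirradiated mice and from 7.45 to 8.54 (median 8.10) in irradiated mice, an increase of 2.90 ± 0.20, adjusted p = 7.49e-07. *Ifit3*, which binds viral RNA complexes, ranged from 3.08 to 3.91 (median 3.43) in unirradiated mice and from 6.07 to 7.73 (median 6.87) in irradiated mice, and the groups were again far apart (3.44 ± 0.31, adjusted p = 5.61e-06). *Ifi44* rose by 3.0, *Oas2* by 2.85, the receptor chaperone *Rtp4* by 2.76, *Oasl2* by 2.37, the viral tether *Bst2* by 2.09, *Ifi27l2a* by 2.00 and the kinase *Eif2ak2*, which encodes PKR, by 1.78. Of these, *Ifi44* was well above background in only 2 unirradiated mice. *Rsad2*, which encodes the antiviral enzyme viperin, was the exception and ranged from 10.31 to 11.11 (median 10.61) in unirradiated mice and from 7.88 to 9.95 (median 9.36) in irradiated mice. Every irradiated mouse was lower, with mice 4 and 2 lowest (-1.50 ± 0.35, adjusted p = 0.00364). *Isg15*, an interferon-induced ubiquitin-like modifier, ranged from 8.94 to 9.66 (median 9.38) in unirradiated mice and from 8.56 to 10.45 (median 9.75) in irradiated mice, with overlap (0.34 ± 0.30, not called). Also not called were, among others and named for that reason after their values were seen, *Irf7* (0.27), *Cxcl10* (-0.07) and *Oas3* (0.12). Mean levels were -0.37 to 0.26 and 1.22 to 1.72. The irradiated mice with high hepatocyte markers were the lower ones (1.22, 1.42 and 1.43, against 1.53, 1.72 and 1.66), and the part of that signal in the result was not tested further. With slide as a block 21 rose, and without the 4 arrays 30.

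Interferon-stimulated promoters carry a response element built from repeats of GAAA, and stretches from 4 promoters are shown to set a pair of genes that rose beside the gene that fell and another that was not called. The letters GAAA, any 2 bases and GAAA again (both strands, overlapping matches counted) occur in the 250 bases before the start of 821 of 27025 RefSeq mouse promoters (3.04%) and in 12 of the 24 tested interferon-stimulated genes with an entry. Capitals mark the matches or their reverse complement, 5′ to 3′ in the direction of the gene (RefSeq, build GRCm38.p6): *Ifit3* at chr19:34583333-34583422, plus strand, *Bst2* at chr8:71537553-71537642, minus strand, *Rsad2* at chr12:26456523-26456612, minus strand and *Isg15* at chr4:156200847-156200936, minus strand.
Ifit3: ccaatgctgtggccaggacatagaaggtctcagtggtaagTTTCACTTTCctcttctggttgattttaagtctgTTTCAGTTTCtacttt
Bst2: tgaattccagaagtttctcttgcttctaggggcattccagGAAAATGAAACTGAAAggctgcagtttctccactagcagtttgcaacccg
Rsad2: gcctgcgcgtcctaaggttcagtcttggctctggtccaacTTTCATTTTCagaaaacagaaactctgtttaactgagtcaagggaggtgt
Isg15: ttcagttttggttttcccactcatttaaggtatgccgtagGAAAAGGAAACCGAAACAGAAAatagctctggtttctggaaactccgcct
*Ifit3* and *Bst2* hold 2 matches each, *Rsad2* holds 1 and *Isg15* holds 3. Of the 12 genes with a match 8 rose, and of all 24 with an entry 19 rose. The 4 promoters shown were picked among those with a match, and *Ifi44*, *Oasl2* and *Eif2ak2* rose without one. Entries were found for 24 of 35 genes, too few to describe the whole list.

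Schlafen genes, many of them interferon-inducible regulators of lymphocyte and myeloid growth, gave 5 rises of 8. *Slfn4* ranged from -1.33 to 0.92 (median 0.19) in unirradiated mice and from 4.53 to 5.68 (median 5.37) in irradiated mice, with all irradiated mice far above the others (5.20 ± 0.35, adjusted p = 7.49e-07). *Slfn3* (3.51, well above background in 2 unirradiated mice) and *Slfn1* (1.60) followed, with *Slfn8* (0.78) and *Slfn10-ps* (0.65) lower. *Slfn2* (0.30) and *Slfn9* (0.08) did not pass the test, nor did *Slfn5* (-0.18), whose probes disagreed (1.21 over the mean of its probes, adjusted p = 0.0016 in limma). The rises numbered 3 with slide as a block and 5 without the 4 arrays. These genes are close paralogs whose probes may share targets.

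**Figure D3:**
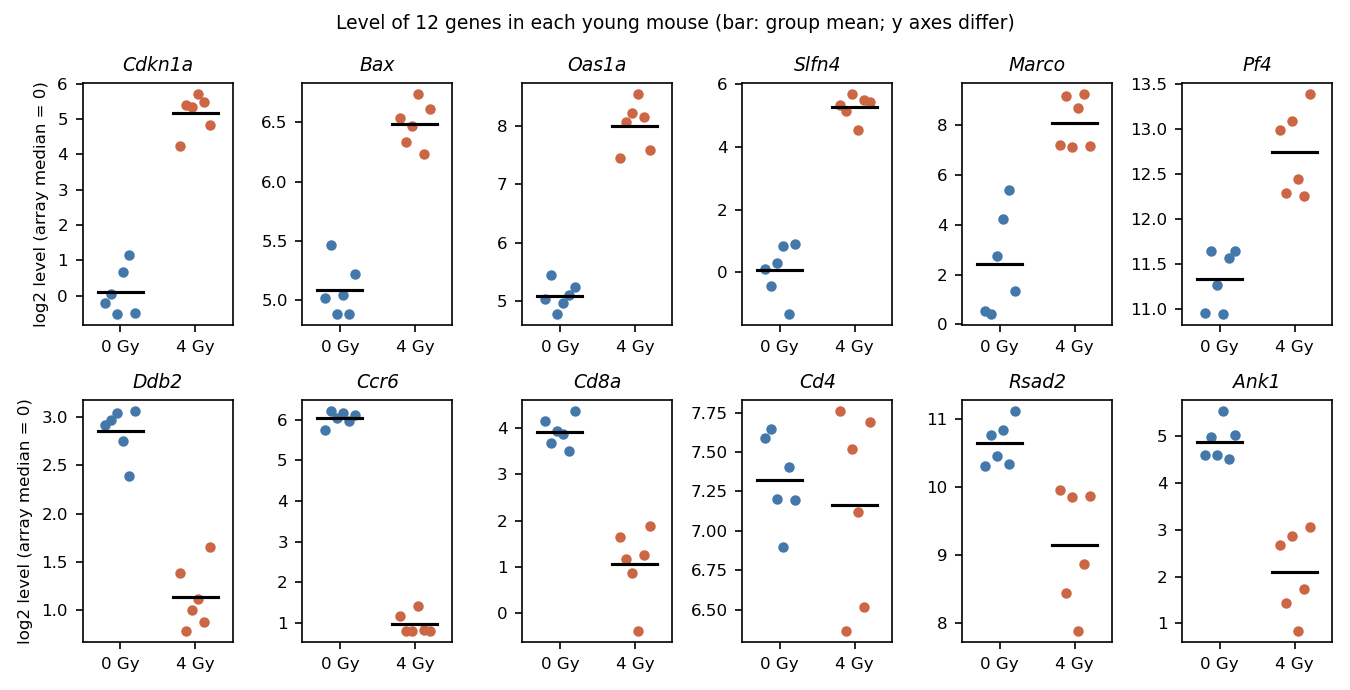
Log2 level (y axis, relative to the median spot of the array) of 12 genes in each young mouse, 1 point per mouse, with the mean of each group as a bar. *Cdkn1a*, *Bax*, *Oas1a*, *Slfn4*, *Marco* and *Pf4* were higher in all 6 irradiated mice, *Ddb2*, *Ccr6*, *Cd8a*, *Rsad2* and *Ank1* lower in all 6, and *Cd4* overlapped.

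Platelet and megakaryocyte genes rose without exception, 24 of 24, with a median of 1.91, and the groups did not overlap for 19. Over all genes tested, 14.4% rose and 9.54% had every irradiated mouse higher. *Pf4*, the platelet chemokine stored in alpha granules, ranged from 10.94 to 11.65 (median 11.42) in unirradiated mice and from 12.26 to 13.39 (median 12.71) in irradiated mice, a change of 1.40 ± 0.23, adjusted p = 0.000357, and *Ppbp* rose by 1.41. P-selectin, *Selp*, ranged from 2.08 to 3.59 (median 2.37) in unirradiated mice and from 4.74 to 5.66 (median 5.03) in irradiated mice, clear of the unirradiated mice (2.57 ± 0.27, adjusted p = 1.56e-05). The platelet tubulin *Tubb1* rose by 2.38, *Thbs1* by 2.36, the ADP receptor *P2ry12* by 2.33, the fibrinogen receptor chain *Itgb3* by 1.86 and *Treml1* by 1.78, its groups touching. The changes lay between 1.40 and 2.57, a narrow range for 24 genes. Mouse 4, which had the highest hepatocyte signal, was the lowest irradiated mouse (0.91). All 24 rose also without the 4 arrays, with spike-in scaling and in the deposited values, 23 after normexp and 15 with slide as a block. Several members, such as *Thbs1*, *Clu* (1.84) and *Vwf* (1.66), are expressed in other tissues too.

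Red cell lists held falls and rises. Globin and heme synthesis genes gave 5 falls and 11 without a call among 16. *Hba-a1* (-0.09, saturated on 3 unirradiated arrays and 1 irradiated array), *Hba-a2* (-0.12), *Hbb-bt* (-0.47) and *Alas2* (-0.32) were not called, in RNA depleted of globin. The haemoglobin chaperone *Ahsp* fell (-1.83), with the mitochondrial iron importer *Slc25a37* (-1.54) and *Fech* (-1.13), the last enzyme of heme synthesis. Of 18 tested membrane and blood group genes 8 fell and 4 rose. Ankyrin, *Ank1*, which ties the red cell skeleton to the membrane, ranged from 4.51 to 5.53 (median 4.79) in unirradiated mice and from 0.83 to 3.06 (median 2.21) in irradiated mice, with no overlap (-2.77 ± 0.36, adjusted p = 8.2e-05). *Epb42* (-2.48) and the anion exchanger band 3, *Slc4a1* (-2.45), fell likewise. The rises on that list were *Aqp1* (1.93), *Sptb* (1.71), *Cd44* (1.52) and *Gypc* (1.41), of which *Cd44* is general to leukocytes and *Aqp1* also endothelial.

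Among 15 erythroid regulators and maturation genes 8 fell and 5 rose. The falls were late genes such as *Trim10* (-2.27), the carbonic anhydrase *Car2* (-1.99), *Bpgm* (-1.54), which sets oxygen affinity, and *Bnip3l* (-1.44), needed to clear mitochondria from reticulocytes. The rises were *Tal1* (2.12), *Epor* (2.08), *Gata1* (1.64), *Nfe2* (1.52) and *Tfrc* (1.28), of which *Gata1*, *Tal1* and *Nfe2* also act in megakaryocytes. The mean level of the membrane list was -0.22, -0.35 and -0.11 in irradiated mice 1, 3 and 6 and -1.25, -2.17 and -1.04 in the mice with high hepatocyte signal, against -0.34 to 0.24 in unirradiated mice. Without the 4 arrays its median was -0.40 with 6 falls, with slide as a block 2 fell, and with the spread estimated from 24 arrays 1 fell. The falls among erythroid regulators and maturation genes numbered 6 without the 4 arrays and 0 with slide as a block, with the spread from 24 arrays or after normexp, and those of globin and heme genes 4, 0, 0 and 0. Stem and progenitor genes, rare in blood, gave 6 rises and 3 falls of 14. *Cd34* (2.43), *Angpt1* (1.96), *Cebpa* (1.61) and *Gata2* (1.59) rose, and *Myb* (-2.02) and *Flt3* (-1.67) fell. *Angpt1* and *Gata2* are expressed by megakaryocytes or mast cells as well. Without the 4 arrays the stem and progenitor list gave 6 rises and 2 falls, with a median of 0.40 beside 1.15 over the 12 mice, and with slide as a block 2 and 1. Of 7 mast cell and basophil genes *Mcpt4* (3.57), *Cpa3* (2.10), *Hdc* and *Gata2* rose. The *Mcpt4* probe was well above background in 3 unirradiated mice, and its groups overlapped. *Mcpt8*, a basophil protease, was not well above background in any irradiated mouse and at least 4.35-fold lower, with overlapping groups. Dendritic cell genes fell in 6 of 10 cases, led by *Ly6d* (-2.29), which B cells share, *Ccr9* and *Flt3*, whereas *Clec9a* rose (1.31). Counting with slide as a block, 1 mast cell gene rose and 3 dendritic cell genes fell, and without the 4 arrays 3 and 6.

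**Figure D4:**
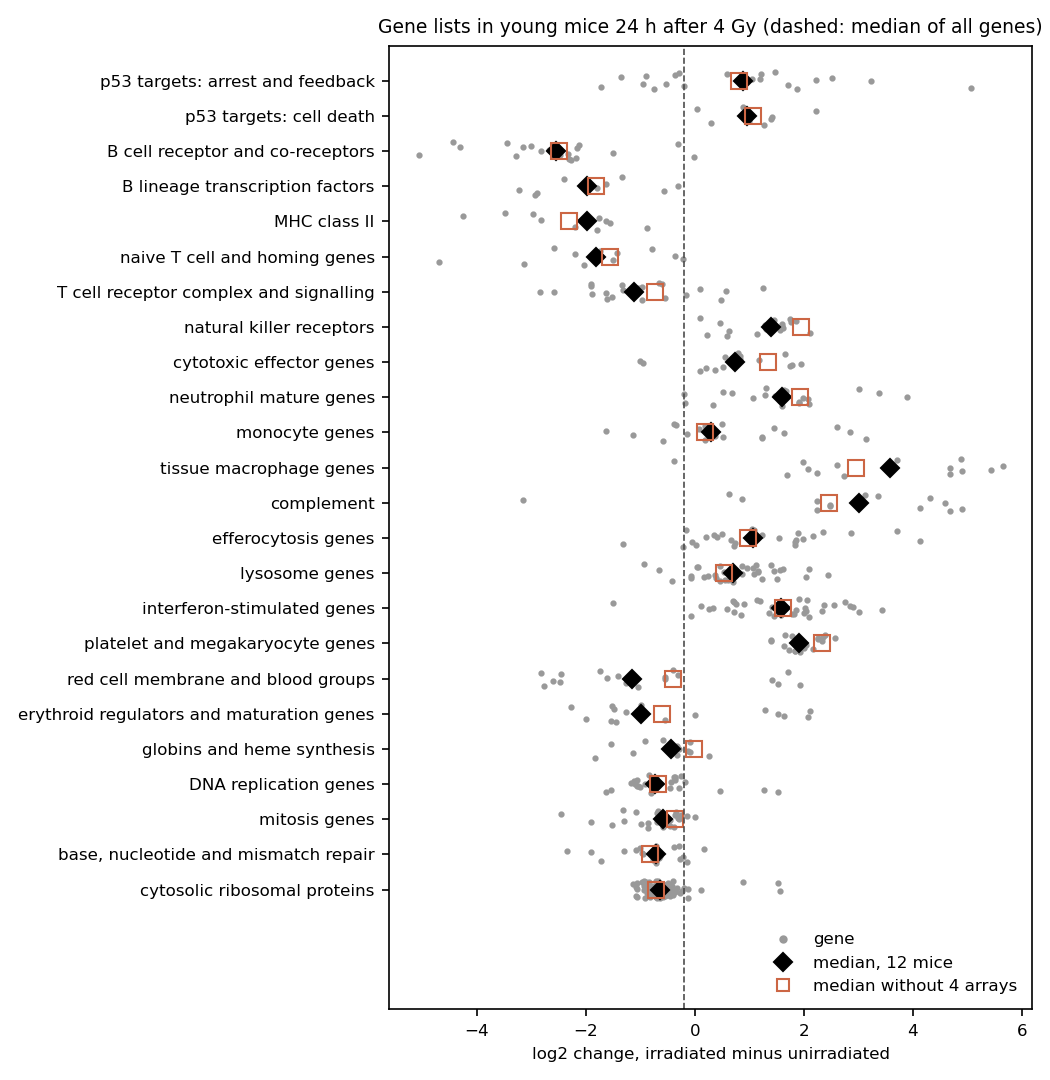
Log2 change of the tested members of 24 gene lists in young mice after 4 Gy (x axis; small points, genes; diamonds, median over all 12 mice; open squares, median without the 4 arrays with the highest hepatocyte markers). The vertical line marks the median of all genes (-0.20). B cell, MHC class II and naive T cell lists lay left of it and platelet, interferon, neutrophil and macrophage lists right of it with either set of arrays.

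Genes of DNA replication fell more often than they rose, 15 of 28 against 2, with a median of -0.73. *Cdt1*, which licenses replication origins, changed by -1.62 ± 0.14, adjusted p = 5.07e-06, and its groups did not overlap. *E2f2* (-1.53), *Mcm7* (-1.17) and *Mcm4* (-0.92), subunits of the replicative helicase, and *Pole* (-1.11), the leading strand polymerase, fell too. *Pcna*, the sliding clamp and also a p53 target, was not called (-0.44). *Dut* (1.26) and *Cdc45* (1.53) were the 2 rises. Mitosis genes gave 8 falls of 26, among them *Nusap1* (-2.46), the phosphatase *Cdc25b* (-1.91), cyclin A2 *Ccna2* (-1.52) and *Ube2c* (-1.32), and *Mki67* (-0.15) and *Mybl2* (-0.25) were not called. Without the 4 arrays 14 replication and 5 mitosis genes fell, and with slide as a block 5 and 0. Of 16 regulators of the G1 phase, cyclin D1 *Ccnd1* (3.17), cyclin D3 *Ccnd3* (1.28) and the inhibitors *Cdkn2a* (3.11) and *Cdkn2b* (2.84) rose and *Cdk2* fell (-1.05). *Cdkn2a* was well above background in 2 unirradiated mice and *Cdkn2b* in 3, and the groups of *Cdkn2a* overlapped. Of the G1 genes 1 rose with slide as a block and 6 without the 4 arrays.

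DNA repair genes fell, with 0 rises in any of the 3 lists. Base, nucleotide and mismatch repair had the most, 14 of 22, with a median of -0.72. *Parp1*, which senses strand breaks, ranged from 3.61 to 4.62 (median 4.18) in unirradiated mice and from 1.54 to 2.06 (median 1.85) in irradiated mice, and every irradiated mouse was lower (-2.35 ± 0.18, adjusted p = 1.79e-06). *Mutyh* (-1.91), *Neil1* (-1.30) and *Ung* (-1.0), glycosylases of base excision repair, and the mismatch factor *Msh6* (-0.97) fell as well. Damage sensing genes fell in 8 of 17 cases, including the kinases *Atm* (-1.36) and *Atr* (-1.05), the clamp subunit *Rad9a* (-1.16) and *Trp53* itself (-1.19), while *H2afx* (-0.12), *Mdc1* (-0.50) and *Rnf8* (-0.48) were not called. Double strand break repair gave 6 of 15, with the DNA-PK subunits *Prkdc* (-1.25), *Xrcc5* (-0.91) and *Xrcc6* (-0.83) among them. With slide as a block 9, 2 and 1 of the 3 lists fell. The counts without the 4 arrays were 15, 9 and 6.

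Of 78 tested cytosolic ribosomal protein genes 53 fell and 2 rose, with a median of -0.64. *Rps27* changed by -1.13 ± 0.18, adjusted p = 0.000254, *Rps15* by -1.08, *Rpl18* by -1.08 and *Rps3* by -1.07. The calls depended on scaling, since 20 fell with quantile normalization, 10 with spike-in scaling, 0 after normexp, 45 without the 4 arrays and 24 with slide as a block. Ribosomal protein genes have many processed pseudogenes that can share a probe. Mitochondrial ribosomal proteins gave 3 falls and 1 rise of 60, but 28 falls without the 4 arrays, and oxidative phosphorylation 3 and 5 of 54. Splicing factors fell in 17 of 47 cases (*Sf3a2*, -1.11), and in 1 with spike-in scaling. Genes named as zinc finger proteins fell in 104 of 274 cases and rose in 7, with a median of -0.53 and *Zfp318* (-2.08) lowest. Translation initiation factors fell in 8 of 46 cases and aminoacyl tRNA synthetases in 2 of 15, both shares below the 21.3% of all genes. The falls with slide as a block were 0 splicing factors, 0 initiation factors and 26 zinc finger genes, and without the 4 arrays 15, 15 and 101. The constitutive proteasome showed 1 rise and 0 falls of 26. Clustered histones went both ways, 12 rises and 4 falls of 41, and their near-identical copies make single genes uncertain. Of the histones 1 rose with slide as a block and 16 without the 4 arrays.

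Several lists of cell structure and metabolism rose. Of 14 tested integrin genes and activators 9 rose, among them *Itgb1* (2.06), *Itga6* (1.99), the talin *Tln1* (1.49), *Fermt3* (1.55) and *Itgam* (1.18), the myeloid CD11b chain. *Itgb7*, of the lymphocyte gut-homing integrin, was the 1 fall (-0.53), at 0.07 after normexp. Actin regulators rose in 12 of 23 cases, with *Vcl* (1.54) and *Zyx* (1.53) highest, and *Coro1a* fell (-1.16). Glycolysis genes rose in 10 of 18, with the glucose transporter *Slc2a3* (1.88), the myeloid hexokinase *Hk3* (1.30) and *Tpi1* (1.29) leading. A pair of genes often used as references, *Gapdh* (1.16) and *B2m*, were among the 5 of 12 reference genes that rose, *Polr2a* (-1.21) and *Tbp* (-0.63) fell, and *Hprt* (0.21) and *Actb* (0.70) were not called. Scaling to the spike-in controls left 4 rises among integrin genes, 2 among actin regulators, 1 in glycolysis and 1 among reference genes. In the same order, the rises with slide as a block were 5, 2, 3 and 0, and without the 4 arrays 10, 12, 11 and 6.

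Stress programmes gave partial responses. NRF2 antioxidant targets rose in 6 of 12 cases, with *Srxn1* (2.26), which repairs peroxiredoxins, and the glutathione synthesis subunit *Gclc* (1.48) highest, but the classical targets *Nqo1* (-0.60) and *Gclm* (-0.76) were not called. Of 14 glucocorticoid-responsive genes 5 rose, *Mt1* (3.10) and *Klf9* (2.17) highest, while *Tsc22d3*, which encodes GILZ, was not called (-0.33). Its list was at 1.41, 1.61 and 1.63 in the hepatocyte-high irradiated mice and at 0.54 to 0.72 in the others. Immediate early genes gave 5 rises and 1 fall of 16, with *Ier3* (1.76, well above background in 2 unirradiated mice) highest. No circadian clock gene of 10 was called. The decoy *Il18bp* rose (3.34, well above background in 3 unirradiated mice), with *Il18* (1.21), among 5 rises of 15 inflammatory cytokine genes. With spike-in scaling the rises in the NRF2, glucocorticoid and immediate early lists were 2, 3 and 1, with slide as a block 2, 0 and 1, and without the 4 arrays 5, 4 and 4. The inflammatory cytokine rises were 1 with slide as a block and 5 without the 4 arrays.

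Markers of other tissues were examined because blood came by cardiac puncture. Endothelial markers rose in 9 of 14 tested of 21 listed (*Tie1*, 2.77, and *Egfl7*, 2.55). *Tie1* was well above background in 1 unirradiated mouse, and *Vwf* is also on the platelet list. List levels were -0.21 to 0.40 in unirradiated and 0.97 to 1.31 in irradiated mice. Of these markers 8 rose without the 4 arrays and 2 with slide as a block. Heart and striated muscle markers gave 1 rise of 8 tested of 16 listed, *Tnnt2*, not well above background in any unirradiated mouse. That count was near the 14.4% of all genes that rose. Fibroblast markers gave 2 of 6, and lung epithelium and keratinocyte markers 0 of 3 each, *Epcam* (0.11) and *Krt14* (-0.26) among them.

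Beyond the 5 largest changes in each direction, ranks 6 to 20 were taken among genes with non-overlapping groups and calls under 3 other scalings. They held rises in *Fabp7* (5.01), a fatty acid binding protein, the lipopolysaccharide binding protein *Lbp* (4.72) and the ephrin receptor *Epha2* (4.57). The dicarboxylate transporter *Slc13a3* (4.39), *Calml4* (4.32), *Gm4951* (4.29) and *Plxdc2* (4.27) rose too. So did the ficolin *Fcna* (4.69), which is also on the tissue macrophage list. *Lbp* ranged from -2.49 to 1.92 (median -1.18) in unirradiated mice and from 2.69 to 5.21 (median 4.26) in irradiated mice, with 3 of 6 unirradiated mice well above background. The same held for *Fabp7*, *Epha2*, *Calml4* and *Gm4951*, and *Slc13a3* was well above background in 2. The falls at those ranks included the B cell Fc receptor homologue *Fcrl1* (-3.82), the sulfotransferase *Chst3* (-3.75), *Prss12* (-3.48) and *Xkrx* (-3.38). *AI662175* was not well above background in irradiated mice and at least 15.6-fold lower, and *Rubcnl* at least 8.54-fold lower. *Chst3* ranged from 5.70 to 6.63 (median 6.16) in unirradiated mice and from 1.91 to 3.23 (median 2.33) in irradiated mice, separating the groups by more than their own spread.

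The genes with the lowest p were not all those with the largest change. *Lgals3bp*, a secreted galectin-3 ligand, ranged from 6.16 to 6.58 (median 6.43) in unirradiated mice and from 8.85 to 9.29 (median 9.05) in irradiated mice, with small spread in both groups (2.66 ± 0.13, adjusted p = 1.11e-07). *Bmp2* (2.15 ± 0.13, adjusted p = 4.85e-07), a growth factor of the TGF-beta family, *Slc22a23* (2.74 ± 0.18, adjusted p = 5.62e-07), *Cpped1* (2.21 ± 0.15, adjusted p = 7.02e-07) and the lectin *Clec4d* (2.09 ± 0.13, adjusted p = 4.85e-07) were similar. *Pla2g2d*, a secreted phospholipase, was not well above background in any irradiated mouse and at least 50.8-fold lower. Some shifts of less than 2-fold also had a low p, among genes chosen for groups that did not overlap. *Cst3*, encoding cystatin C, ranged from 8.33 to 8.70 (median 8.61) in unirradiated mice and from 9.30 to 9.70 (median 9.55) in irradiated mice, without overlap (0.95 ± 0.12, adjusted p = 7.27e-05), and *Cd300lb* (1.0), *Tango2* (0.97), *Daglb* (0.94) and *Creb3l1* (0.89) rose by similar amounts. *Strada* (-0.94 ± 0.12, adjusted p = 5.53e-05), an activator of LKB1, *Pqbp1* (-0.99) and *B3galt4* (-1.0) fell.

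Old mice were exposed to the same dose in the same experiment, on other slides scanned on another day, so only the change within each age was compared. Of the DEGs of young mice 5521 (88.3%) had a change of equal sign in old mice. No gene passed for an age by radiation interaction (lowest adjusted p = 0.0604, limma), with 4112 genes (23.5%) at an unadjusted p under 0.05, of which 1393 were DEGs in young mice. Without old irradiated mouse 3 the interaction count was 1024, and it was 0 to 7 without any other single mouse. Median signal was 8.66 and 8.84 on the arrays of old irradiated mice 4 and 6, against 18.34 to 33.1 in the other old irradiated mice. The unadjusted count was 2846 without mouse 4 and 2904 without mouse 6. It was 4930 to 5828 without old irradiated mouse 1, 2, 3 or 5. Hepatocyte markers had a median change of 2.96 in young and 6.36 in old mice. Any part of array signal or hepatocyte signal in the age differences below was not tested. *Oas1a* changed by 2.90 in young and 0.50 in old mice and *Cd8a* by -2.84 and -0.63. Among the lists, an unadjusted interaction p under 0.05 was found for 18 of 35 interferon-stimulated genes (median change 1.59 in young and 0.35 in old mice), 14 of 20 monocyte genes (0.30 and -1.11) and 22 of 35 lysosome genes (0.71 and -0.15). Larger shares lay in lists with few calls in young mice, 12 of 15 aminoacyl tRNA synthetases (-0.09 and -1.09), 45 of 60 mitochondrial ribosomal proteins (-0.19 and -1.18) and 18 of 26 proteasome genes (0.03 and -0.93). For platelet genes (1.91 and 1.81) there were 0 of 24, and for B cell receptor genes (-2.54 and -3.99) 7 of 21.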

How the data were processed

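Whole blood RNA of 24 mice (6 per group, each mouse a separate animal) was hybridised to 1-colour Agilent mouse arrays, and the 12 young mice are described here. The authors scanned the arrays and processed the images with Agilent Feature Extraction 12.0.2 (submitters' processing notes), which deposited background-subtracted, detrended intensity values per spot, not scaled between arrays. Signals not above error were replaced by surrogate values there, so changes of dim probes are compressed or unsure. The authors also deposited a table of filtered, normalized log2 values made with BRB-ArrayTools. Its column medians were 5.77 to 6.73 and its correlation with the log2 intensity of the same array 0.9946 to 0.9998. The methods give log2 transformation and median normalization for it, the level to which its columns were centred remained unknown, and it served as an alternative.

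From the deposited intensity values, log2(processed signal) minus the median of the non-control spots of each array was computed, after the median normalization of the study's methods. Probes flagged as non-uniform or not significant on 25% or more of the 24 arrays were left out. The probe with the highest mean stood for a gene, named as in the array files, and genes that differed 1.5-fold or more from their median on fewer than 5 arrays were left out. Young irradiated and unirradiated mice were compared with limma 3.58.1 (R 4.3.3) and its moderated test, p under 0.005 and Benjamini-Hochberg adjusted p under 0.05. The fit was tested on simulated data with known changes. The number of mice limits the precision. Where a probe was not well above background in any mouse of a group, a bound replaces its fold ("at least"), from the mean of the brighter group and, per array, the lowest signal of probes well above background. It bounds the group means only, leaves out the spread between mice and can lie close to the measured fold.

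The group of mice and the gene lists were chosen with earlier results of these data known, and lists are described by counts and medians only. Genes were named by a rule. From each list it took the 6 brightest tested members, the 4 largest rises and the 4 largest falls among DEGs, and every member of a list of 14 or fewer. It also took ranks 6 to 20 in each direction among DEGs with groups apart, well above background in all 6 mice of a group and called under 3 other scalings, and within the same limits the 10 lowest p and the 5 lowest p under 2-fold per direction. Some genes the rule names are not reported here. Same-numbered mice of the groups did not deviate together (correlations -0.289 to 0.312), so replicate numbers were taken as names. Promoter sequences are from RefSeq (GRCm38.p6), matched by symbol. Alternatives covered scaling, background correction, filters, probes of a gene, the test, blocks and left-out mice.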

Additional observations from a re-analysis of the deposited data

Results flagged for a closer look

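In each group of 6 mice, a mouse was taken as standing apart when its gap to the nearest mouse, divided by the range of the group, passed Dixon's critical value for 6 samples, which chance reaches in about 5% of groups. This occurred in 32 of 700 groups over the 350 genes named above and in 5 of 150 groups over the mean levels of the gene lists. Of the 37 cases 18 were irradiated mouse 4, the mouse with the highest hepatocyte markers, and 7 were unirradiated mouse 5. Values are log2 levels relative to the array median.

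Irradiated mouse 4 was the lowest of its group for genes of platelets and red cells or their precursors, at 5.04 for *Angpt1*, 6.89 for *F13a1*, 6.17 for *Fermt3*, 5.80 for *Gypc*, 7.02 for *Nfe2*, 5.37 for *P2ry12*, and 0.19 for *Sptb*, and also for *Srxn1* (7.27), *Ccnd3* (8.61) and *Tie1* (-0.07). It was the highest for *Cxcr5* (5.47), *H2-Ab1* (10.10), *H2-Eb1* (10.26), *S1pr1* (5.21), *Rnf8* (3.78), *Rps15* (10.80) and *Ung* (7.22), and its MHC class II list was at -1.75 relative to the unirradiated mean. Irradiated mouse 5 was highest for *Eif2ak2* (3.52) and *Rrm2b* (-0.45), mouse 2 lowest for *Cd244* (4.63) and mouse 1 lowest for *Siglec1* (0.82).

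Unirradiated mouse 5 was the lowest for *Atm* (0.67), *Cd55* (5.41), *Dapl1* (5.04), *H2-Eb2* (2.47), the caspase list (-0.25) and the MHC class II list (-0.41), and the highest for *C3* (7.38). Unirradiated mouse 1 was lowest for *Cd2* (7.56) and *Cst3* (8.33), mouse 2 highest in the eosinophil list (0.83), mouse 3 lowest for *Ier3* (-0.83) and highest for *Fermt3* (6.75) and the stem and progenitor list (0.14), and mouse 4 lowest for *Ccnd3* (7.63) and highest for *Trim10* (7.54). No named gene had opposite, non-overlapping changes in young and old mice.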

How the results depend on the processing

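DEGs numbered 6251 (2520 rises and 3731 falls), and 5392 to 6532 without any single mouse (rises 2219 to 2694, falls 3094 to 3838). Scaling to the spike-in controls gave 2857 (1046 and 1811), normexp background correction 872 (816 and 56), the deposited values 3748 (1437 and 2311), 1 fit of all 24 arrays 3970 (1927 falls) and slide as a fixed block 1809 (816 and 993), and filters set on the 12 young arrays left 2477 falls. Slide as a random block gave 8803. The replicate block gave 5033 (2305 and 2728), and since the numbers do not pair the mice it describes no pairing of animals. Of alternatives chosen after the data were seen, leaving out the 4 arrays with the highest hepatocyte markers gave 6179 DEGs (4898 shared) and counting similar arrays as 1 sample 4590 (4524 shared), and all 6251 kept their sign in both. Both fits reuse arrays on which the DEGs were chosen, so the kept signs are no separate check.

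No gene passed for the age by radiation interaction (4112 at an unadjusted p under 0.05), compared with 8 with 75th percentile scaling, 7 with quantile normalization, 9 with the median over bright probes, 2 with the mean of all probes, 32 with slide as a random block and 0 to 1024 without any single mouse, the latter being old irradiated mouse 3. Within the shared slide (4 arrays, limma) 77 genes passed, 0 with each of 75th percentile scaling, quantile normalization and the bright-probe median (3627, 3727 and 3957 at an unadjusted p under 0.05), 29 with spike-in scaling and 9 after normexp. Of the 350 genes named, changes of sign beside a call were found for *Itgb7* after normexp (0.071), *Lcp2* in the deposited table (-0.305) and *Slfn5* with the mean of its probes (1.21) and in the deposited table (2.35). Calls were lost for 147 of them with slide as a fixed block, 131 after normexp and 53 with spike-in scaling. Of 54 list counts of 5 or more members, 8 stayed within 1.5 times with slide as a fixed block, 10 after normexp, 23 with spike-in scaling and 47 without the 4 arrays. The cause of these differences was not tested. Signal over background limits dim genes, for which surrogate values stand in.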
